A study of Mus musculus with 5 samples.

Results

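The genes described here encode the proteins of the mitochondrial ribosome. They were taken as all rows of the deposited table whose name begins with Mrpl (large subunit) or Mrps (small subunit) and a digit, with names of pseudogenes ending in "-ps" left out. The name pattern matched 84 rows, 5 of which were pseudogenes, so 79 of 53927 rows remained, 49 named Mrpl and 30 named Mrps. They carry 78 symbols, because Mrps23 stands under 2 gene IDs. A total of 77 members, 48 of the large and 29 of the small subunit, passed a filter of at least 0.5 CPM (reads per 1 M, after the authors' scaling) in at least 2 libraries.

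Total RNA was measured in 5 libraries of nephron progenitor cells, grown as primary cultures from C57BL/6J mouse embryos. The wild type group (WT) held 2 libraries from Dis3l2+/+ embryos and the knockout group (KO) held 3 from Dis3l2-/- embryos, all harvested after 1 passage. Dis3l2 encodes an exonuclease that degrades RNA with added uridines. The sources used here do not say which stretch of Dis3l2 was removed or whether each library came from its own embryo or litter. P-values therefore measure only the spread between these libraries, which may be technical.

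The mitochondrial ribosome translates the few messages encoded by mitochondrial DNA, all of which are for subunits of the respiratory chain and ATP synthase. Its ribosomal RNAs are transcribed inside the mitochondrion, whereas its proteins are encoded in the nucleus, translated in the cytosol and imported. Some of its proteins have bacterial counterparts and others are found only in mitochondria.

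By the steps between low values, WT replicates 1 and 2 held 22.3 and 28.3 M assigned reads and KO replicates 1, 2 and 3 held 49.3, 32.2 and 19.6 M. A level of 3 reads, taken as the floor, corresponded to 0.064 to 0.141 CPM. Dis3l2 was at 16.04 and 12.18 CPM in WT, against 6.50, 4.93 and 4.70 CPM in KO, so the 2 groups did not overlap (log2 fold change -1.24, SE 0.21, limma adjusted p = 0.954). The authors' deposited table gives Dis3l2 a log2 fold change of -1.38 with an FDR of 0.00855. The progenitor gene Six2 was at 18.97 and 18.82 CPM in WT against 31.86, 26.51 and 18.58 CPM in KO, while the progenitor gene Cited1 ranged from 1.40 to 17.05 CPM. All progenitor markers together summed to 944 and 733 CPM in WT against 924, 754 and 841 CPM in KO, and 7 of the 11 tested had a log2 fold change above 0. Itga8 (356 to 471 CPM) and Eya1 (168 to 274 CPM) were the largest parts of this sum. The listed progenitor marker Pax2 did not pass the filter, at 0.05 and 0.18 CPM in WT against 0.21, 0.66 and 0.33 CPM in KO. The median marker, as log2(CPM + 1) against the WT mean, stood at 0.35 and -0.35 in WT replicates 1 and 2. In KO replicates 1, 2 and 3 it stood at 0.67, -0.12 and -0.20. Podocyte markers summed to 6.76 to 15.7 CPM and endothelial markers to 40.0 to 72.9 CPM. Leukocyte markers summed to 7.65 and 7.21 CPM in WT, and their sum was lower in each KO library, at 5.69, 4.95 and 5.13 CPM. Most of this sum came from Mrc1 and Cd68. Csf1r went the other way, at 0.65 and 1.23 CPM in WT against 0.79, 1.34 and 1.74 CPM in KO (log2 fold change 0.23). Ureteric bud markers summed to 5.23 and 8.61 CPM in WT against 10.31, 13.32 and 7.10 CPM in KO, most of it from Wnt11, while Ret was at 0.14 to 0.42 CPM and Wnt9b at or under 0.04 CPM. KO replicates 1 and 2 were thus above both WT libraries for this low sum, as they were for most members, and its part in the members' values was not tested. Summed stroma markers were at 474 and 451 CPM in WT and lower in KO, at 351, 334 and 310 CPM. Without Aldh1a2 they were at 150 and 207 CPM in WT and within that range in KO, at 173, 195 and 182 CPM. Within that remaining sum, however, Ntn1 was higher in every KO library, at 8.81 and 13.66 CPM in WT against 17.15, 48.59 and 40.49 CPM in KO. Pdgfra was lower in every KO library, at 4.27 and 6.28 CPM in WT against 2.15, 3.34 and 3.53 CPM in KO. The libraries were not matched for sex: the male-specific Ddx3y was at 103.73 CPM in WT replicate 1 and 127.86 CPM in KO replicate 3, and at or under 0.19 CPM in the others, which had Xist at 765 to 951 CPM. The nuclear RNA Rn7sk took 11.9% of the summed signal in KO replicate 1 and 2.27% to 6.48% in the other 4 libraries.

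No member passed the test of KO against WT. None had an adjusted p under 0.05 (limma with Benjamini-Hochberg adjustment over 14884 genes), where 1 gene of the whole table did (0.00672%), and none had an unadjusted p under 0.05, where 413 genes did (2.77%). The smallest unadjusted p of a member in this limma fit was 0.0631, for Mrpl18. In the authors' deposited table, too, no member had an FDR under 0.05 (0.0315% of all rows), and the smallest unadjusted p there was 0.0558, for Mrps28.

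Although no single gene was called, the fitted differences lay to one side. Of the 77 members 61 had a log2 fold change above 0 and 16 below (79.2% above, against 52.9% of all genes tested). When the libraries were scaled without mitochondrially encoded RNAs and Rn7sk, the split was 50 above and 27 below. Fold changes refer to log2(CPM + 1), a scale that understates changes of genes with low values. The median was 0.14 for all members, 0.16 for the large subunit and 0.08 for the small subunit, beside 0.01 for all genes tested. With the scaling that leaves out mitochondrially encoded RNAs and Rn7sk, the medians were 0.10 for the large and 0.02 for the small subunit, beside -0.05 for all genes tested. Values ran from -0.18 for Mrpl50 to 0.64 for Mrps28, with a median standard error of 0.17.

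**Figure D1:**
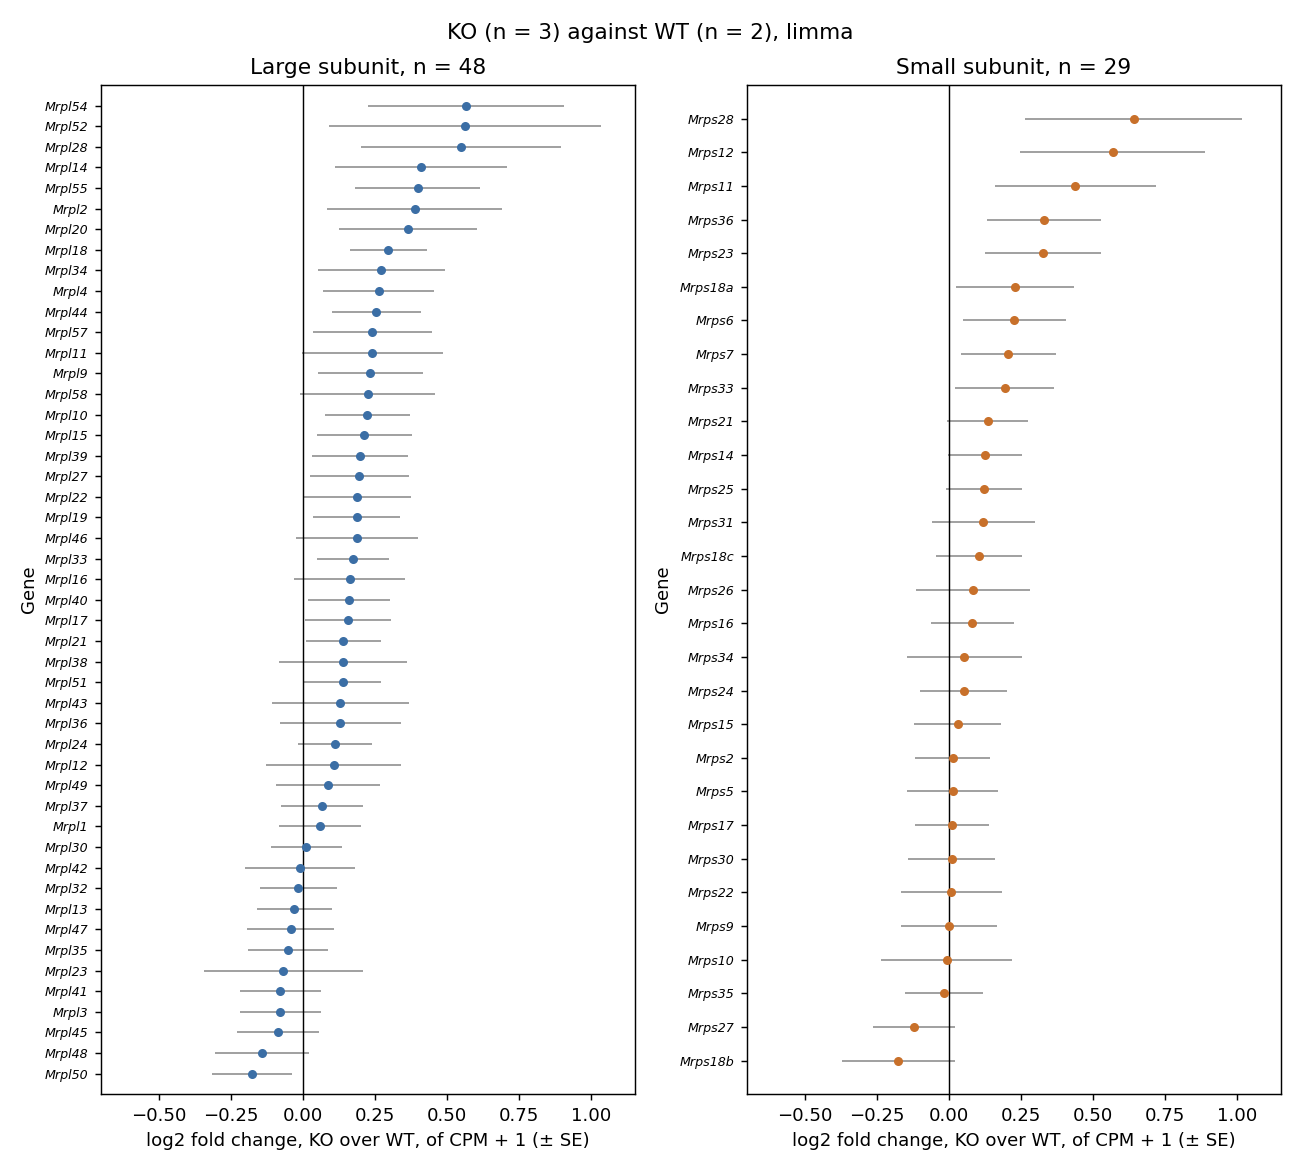
KO minus WT difference of each of the 77 tested members on the log2(CPM + 1) scale (x axis, points; bars are the limma standard error), with large subunit genes on the left and small subunit genes on the right, ordered by value. Most points lie right of 0, from -0.18 to 0.64, and no member passed the adjusted threshold.

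On the authors' scaling, the 3 KO libraries did not share this shift. Against the WT mean, the median member stood at 0.23, 0.20 and -0.03 in KO replicates 1, 2 and 3, while WT replicates 1 and 2 stood at 0.04 and -0.04. The same medians over all genes tested were 0.02, 0.01 and 0.00 in the 3 KO libraries. KO replicate 1 exceeded both WT libraries in 58 members (75.3%, against 39.6% of all genes tested) and KO replicate 2 in 50 (64.9%, against 37.3%). KO replicate 3 did so in 21 (27.3%, against 32.8%) and was below both WT libraries in 29 (37.7%, against 33.7%). KO replicate 1 was the highest of the 5 libraries for 38 members (49.4%, against 28.1%), and KO replicate 3 was the lowest for 28 (36.4%, against 23.7%).

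**Figure D2:**
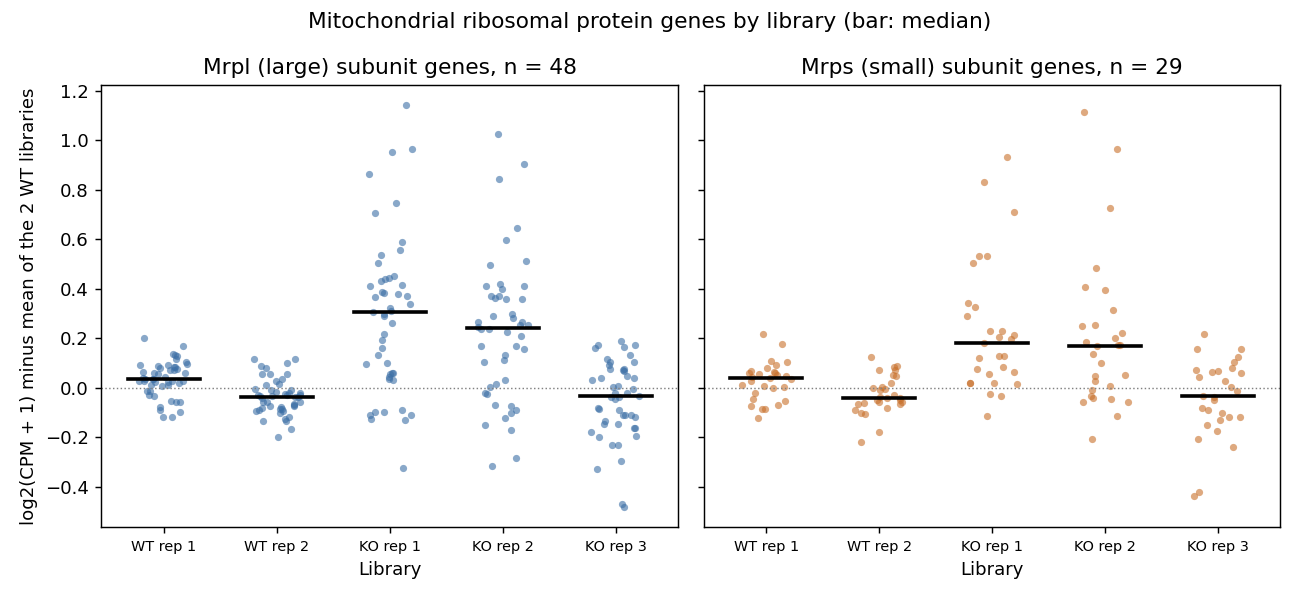
Level of each tested member as the difference from the WT mean on the log2(CPM + 1) scale (y axis) in the 5 libraries (x axis), for 48 large subunit genes and 29 small subunit genes; each point is a gene and the bar is the median. The large subunit medians are 0.31, 0.24 and -0.03 in KO replicates 1 to 3 and the small subunit medians 0.18, 0.17 and -0.03.

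Comparison within each sex gave the same picture by library. Between the male libraries, KO replicate 3 minus WT replicate 1 had a median of -0.06 over the members, with 30 of 77 higher in KO. Over all genes tested this median was -0.02, with 7061 of 14884 higher in KO. Between the female libraries, the members' median difference from WT replicate 2 was 0.27 for KO replicate 1 and 0.20 for KO replicate 2. Over all genes tested these medians were 0.04 and 0.02. With a single male library in each genotype, sex and the difference among the KO libraries cannot be told apart. Without KO replicate 3 the members' median was 0.21, beside 0.01 for all genes tested. No member passed after adjustment in that fit (smallest adjusted p 0.157, limma), where 8 genes of the whole table did. With the replicate number as a block, which leaves KO replicate 3 without a partner and so out of the genotype difference, limma called 7 members higher in KO (against 2.28% of all genes tested): Mrps12, Mrpl54, Mrpl28, Mrps11, Mrpl20, Mrpl52 and Mrpl2. Nothing in the sources used here ties libraries of the same number to each other.

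The largest positive values in the small subunit belonged to Mrps28 and Mrps12. Mrps28 (ENSMUSG00000040269.5, chromosome 3, 8802146 to 8923918, minus strand, GRCm38) encodes a protein of the small subunit related to bacterial S1. Its level was 4.27 and 3.12 CPM in WT against 7.89, 9.08 and 3.29 CPM in KO. KO replicates 1 and 2 lay above both WT libraries, and KO replicate 3 lay between them (log2 fold change 0.64, SE 0.38). Mrps12 (ENSMUSG00000045948.8, chromosome 7, 28739641 to 28741820, minus strand) encodes the protein at the decoding site, whose bacterial counterpart is known for streptomycin resistance. It stood at 8.21 and 7.76 CPM in WT, against 14.98, 16.53 and 7.43 CPM in KO. Again KO replicates 1 and 2 were high, and KO replicate 3 was below both WT libraries (0.57, SE 0.32).

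In the large subunit the mitochondria-specific Mrpl54 and Mrpl52 and the bacterial-type Mrpl28 led. Mrpl54 (ENSMUSG00000034932.4, chromosome 10, 81264713 to 81266934, minus strand) was at 15.12 and 14.50 CPM in WT against 29.62, 28.57 and 13.12 CPM in KO (0.56, SE 0.34). Mrpl52 was at 12.34 and 10.74 CPM in WT against 26.64, 24.45 and 7.95 CPM in KO (0.56, SE 0.47). Mrpl28 was at 15.07 and 11.73 CPM in WT against 26.91, 24.67 and 11.76 CPM in KO (0.55, SE 0.35). Mrps11 of the small subunit, at 9.65 and 9.62 CPM in WT against 16.41, 16.59 and 8.79 CPM in KO, had a log2 fold change of 0.44 (SE 0.28). In each of Mrpl54, Mrpl52, Mrpl28 and Mrps11, KO replicates 1 and 2 were above both WT libraries. KO replicate 3 was below both in Mrpl54, Mrpl52 and Mrps11 and between them in Mrpl28. Mrpl20, with a bacterial counterpart, was at 37.75 and 37.25 CPM in WT against 61.84, 53.24 and 34.71 CPM in KO (0.36, SE 0.24). Mrpl55 was at 9.32 and 10.85 CPM in WT against 15.28, 15.72 and 10.35 CPM in KO (0.40, SE 0.22). Mrpl52, Mrpl28 and Mrps11 were singled out after their values had been seen.

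A second group of members differed less but did not overlap between genotypes. Every KO library was above both WT libraries for 11 members (14.3%, against 7.85% of all genes tested), 7 of the large subunit (Mrpl33, Mrpl18, Mrpl24, Mrpl21, Mrpl40, Mrpl19 and Mrpl44) and 4 named Mrps (Mrps14, Mrps25, Mrps33 and Mrps36). Mrpl18, with a bacterial counterpart, was at 28.94 and 29.45 CPM in WT against 35.89, 39.14 and 33.39 CPM in KO (0.30, SE 0.13). Mrpl44, which carries a ribonuclease III fold, was at 11.18 and 11.41 CPM in WT against 15.02, 13.22 and 12.84 CPM in KO (0.25, SE 0.15). Mrpl33, the most abundant member by CPM, was at 71.18 and 65.05 CPM in WT against 81.79, 75.94 and 73.27 CPM in KO (0.17, SE 0.12). None of these genes passed the limma test. Mrps33 was the second lowest tested member, at 5.01 and 4.67 CPM in WT against 6.33, 5.58 and 5.17 CPM in KO (0.19, SE 0.17).

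Mrps36, the lowest tested member, is now known as a subunit of the oxoglutarate dehydrogenase complex rather than of the ribosome. It stood at 2.09 and 2.32 CPM in WT against 3.64, 3.21 and 2.35 CPM in KO (0.33, SE 0.20). KO replicate 3 exceeded the higher WT library by 0.03 CPM, which is less than 1 read.

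Negative differences were fewer and smaller. Every KO library was below both WT libraries for 1 member, Mrps27 (1.30%, against 6.98% of all genes tested), a protein with pentatricopeptide repeats. It was at 19.15 and 16.78 CPM in WT against 16.47, 16.47 and 16.27 CPM in KO (log2 fold change -0.12, SE 0.14). Mrpl50, a large subunit protein found only in mitochondria, had the lowest value (-0.18, SE 0.14), with 50.78 and 44.65 CPM in WT against 43.56, 38.02 and 44.72 CPM in KO. KO replicate 3 lay just above WT replicate 2, so its groups overlapped. Mrps18b (-0.18, SE 0.20) was at 10.20 and 8.64 CPM in WT against 9.16, 8.98 and 6.68 CPM in KO. Mrpl48 (-0.14, SE 0.16), Mrpl45, which binds the ribosome to the inner membrane (-0.09, SE 0.14), and Mrpl3 (-0.08, SE 0.14) also had negative values within their standard error.

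Members with a known role outside the bare ribosome varied. Mrpl12, which forms the flexible stalk and binds the mitochondrial RNA polymerase, was at 17.34 and 16.78 CPM in WT against 23.06, 20.27 and 13.36 CPM in KO (0.11, SE 0.23). Mrpl58, a peptidyl-tRNA hydrolase built into the large subunit, was at 14.93 and 13.20 CPM in WT against 20.31, 18.46 and 12.09 CPM in KO (0.22, SE 0.23). For both, KO replicate 1 was highest and KO replicate 3 lowest. Mrps5 and Mrps22, the latter a gene in which human mutations cause mitochondrial disease, had log2 fold changes of 0.01 (SE 0.16) and 0.01 (SE 0.18). Their levels in the order WT replicates 1 and 2, KO replicates 1 to 3 were 24.39, 22.50, 27.02, 23.27 and 21.02 CPM for Mrps5 and 13.59, 13.38, 13.66, 11.54 and 15.85 CPM for Mrps22.

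Mouse has a trio of Mrps18 genes related to the same bacterial protein, and they did not share a direction. Mrps18a, placed in the large subunit by structures despite its name, was at 21.80 and 19.87 CPM in WT against 30.60, 25.01 and 19.33 CPM in KO (0.23, SE 0.21). Mrps18c was at 16.97 and 15.06 CPM in WT against 18.26, 16.09 and 17.54 CPM in KO (0.11, SE 0.15). The value of Mrps18b, given above, was negative. Mrps30, the other Mrps protein that sits in the large subunit, had a log2 fold change of 0.01 (SE 0.15). No test of a difference among these genes was run.

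Members also differed widely in level. By CPM, Mrpl33 (mean over 5 libraries 73.4), Mrps17 (50.9), Mrpl20 (44.96) and Mrpl13 (44.8) were highest, and the log2 fold changes of Mrps17 and Mrpl13 were 0.01 (SE 0.13) and -0.03 (SE 0.13). Per kb of annotated exon the order changed: Mrps21 led with 37.9 CPM per kb, followed by Mrpl20 (27.0), Mrpl54 (24.5) and Mrpl18 (23.9). The lowest of the tested members were Mrpl23 (1.68), Mrpl48 (1.76) and Mrps10 (1.80 CPM per kb). Median levels were 9.35 CPM per kb for the large and 5.62 for the small subunit. Mrpl23 has a processed copy in the table, Mrpl23-ps1, at 3.01 to 3.65 CPM, so reads shared between them may have been split.

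A pair of rows could not be tested. Mrpl53 was at 0.05, 0.00, 0.04, 0.00 and 0.00 CPM in WT replicates 1 and 2 and then KO replicates 1 to 3, under the level of 3 reads in every library. In the GENCODE vM21 annotation 88.0% of its exonic length is also exon of Gm42688 on the same strand, itself at 0.61 to 0.98 CPM, and no source used here says how such reads were treated. The second Mrps23 row (ENSMUSG00000098375.6) was 0 in all libraries, while the first was at 13.49 and 12.92 CPM in WT against 19.16, 18.87 and 13.07 CPM in KO (log2 fold change 0.33, SE 0.20). Exons of 33 members overlap another gene, over more than 50% of their length in 3 (Mrps34, Mrps25 and Mrpl53). The median log2 fold change was 0.13 for the 32 tested members with an overlap and 0.14 for the 45 without.

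Both subunits had their highest sums in KO replicates 1 and 2. Large subunit genes gave 1027 and 982 CPM in WT against 1208, 1158 and 998 CPM in KO. Small subunit genes gave 493 and 476 CPM in WT against 557, 540 and 476 CPM in KO. KO replicate 3 lay between the WT libraries for the large subunit and just below both for the small subunit. The small over large ratio, which does not depend on how a library is scaled, was 0.480 and 0.485 in WT and 0.461, 0.467 and 0.476 in KO. By names alone, every KO library was below both WT libraries, with means of 0.483 ± 0.003 (SD, n = 2) in WT and 0.468 ± 0.008 (SD, n = 3) in KO. With Mrps18a and Mrps30 counted in the large subunit, where structures place them, the ratio was 0.426 and 0.434 in WT and 0.406, 0.416 and 0.427 in KO, and KO replicate 3 lay between the WT libraries. With geometric means in place of sums, the ratio was 0.768 and 0.776 in WT and 0.743, 0.761 and 0.777 in KO, so KO replicate 3 was then the highest. An exact two-sided permutation test of the ratio of sums gave p = 0.2, the smallest that 2 libraries against 3 allow.

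The ribosomal RNAs of the same particle lay on the other side. mt-Rnr1, the small subunit rRNA, was at 74797 and 79937 CPM in WT against 62421, 63820 and 54545 CPM in KO. mt-Rnr2, the large subunit rRNA, was at 346489 and 306403 CPM in WT against 268692, 264990 and 248959 CPM in KO. All 3 KO libraries were below both WT libraries for both rRNAs (as for 6.98% of all genes tested), and their sum was 82.0%, 81.4% and 75.2% of the WT mean. As a share of each library's summed CPM, all mitochondrially encoded RNAs took 42.0% and 40.2% in WT against 32.8%, 34.0% and 34.2% in KO. By that measure KO replicate 3 was not the lowest. Neither mt-Rnr1 nor mt-Rnr2 passed the limma test (log2 fold changes -0.36, SE 0.83, and -0.32, SE 1.72), in which their standard errors were far wider than the spread between the libraries. The mt-Rnr1 over mt-Rnr2 ratio, 0.216 and 0.261 in WT and 0.232, 0.241 and 0.219 in KO, overlapped between groups. With the libraries scaled without mitochondrially encoded RNAs and Rn7sk, the members' median log2 fold change was 0.07, beside -0.05 for all genes tested.

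**Figure D3:**
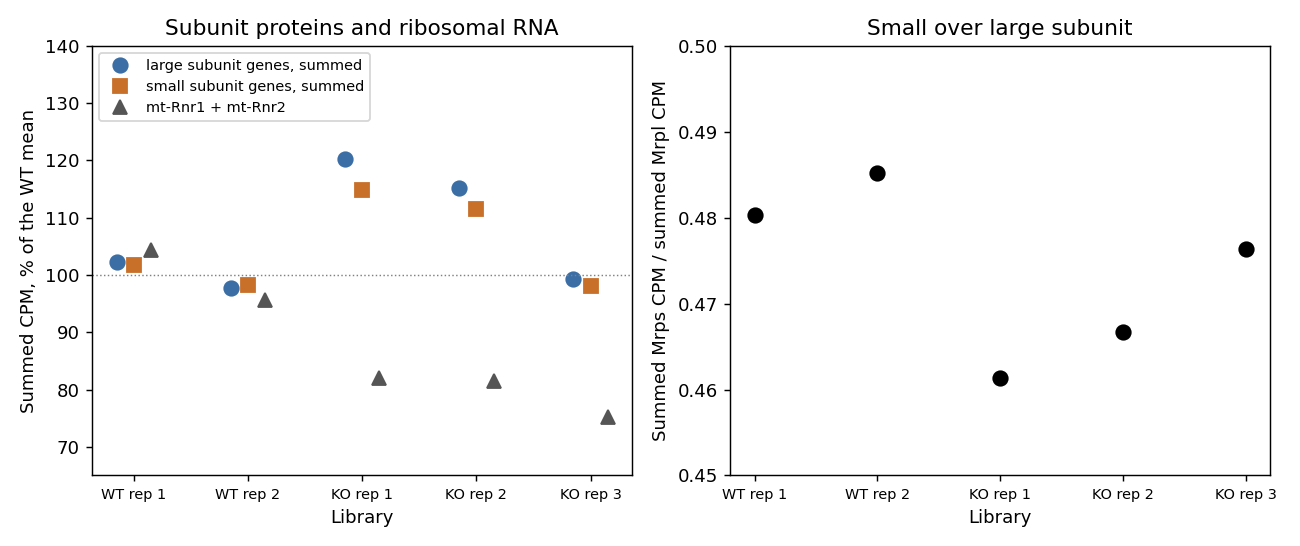
Left, summed CPM of large subunit genes, small subunit genes and the 2 mitochondrial rRNAs as a percentage of the WT mean (y axis) in each library (x axis). Right, the ratio of summed Mrps to summed Mrpl CPM on an axis that does not start at 0; rRNA is below the WT mean in every KO library, at 75.2% to 82.0%, and the ratio runs from 0.461 to 0.485.

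Members differed from each other in a way that followed transcript length. The 16 members with a longest transcript under 1000 bases had a median log2 fold change of 0.30, and the 24 from 1000 to 2000 bases one of 0.17. The 26 members from 2000 to 4000 bases had a median of 0.06 and the 11 longer ones 0.01. In the same length classes all genes tested had medians of 0.05, 0.06, 0.01 and -0.02. By library the fall was not steady. From the shortest to the longest class, the members' medians against the WT mean were 0.54, 0.32, 0.06 and 0.19 in KO replicate 1. In KO replicate 2 they were 0.41, 0.24, 0.07 and 0.14. Across the 77 members, which share libraries, the rank correlation of the difference with transcript length was -0.46, -0.49 and 0.13 in KO replicates 1, 2 and 3. The correlation with GC content was 0.49, 0.46 and -0.35 in the same libraries. Over 14864 genes it was 0.39, 0.42 and -0.33 for GC and -0.17, -0.20 and 0.14 for length, so GC and length moved with the difference in the whole table too.

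After the trend with length and GC over all genes was removed from each library, the members' medians were 0.18, 0.11 and 0.01 in KO replicates 1, 2 and 3. The large subunit then had medians of 0.19, 0.12 and -0.02 and the small subunit 0.15, 0.11 and 0.05. This adjustment was added after the data had been seen. The split into 60 positive and 17 negative members was close to that of the unadjusted fit.

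**Figure D4:**
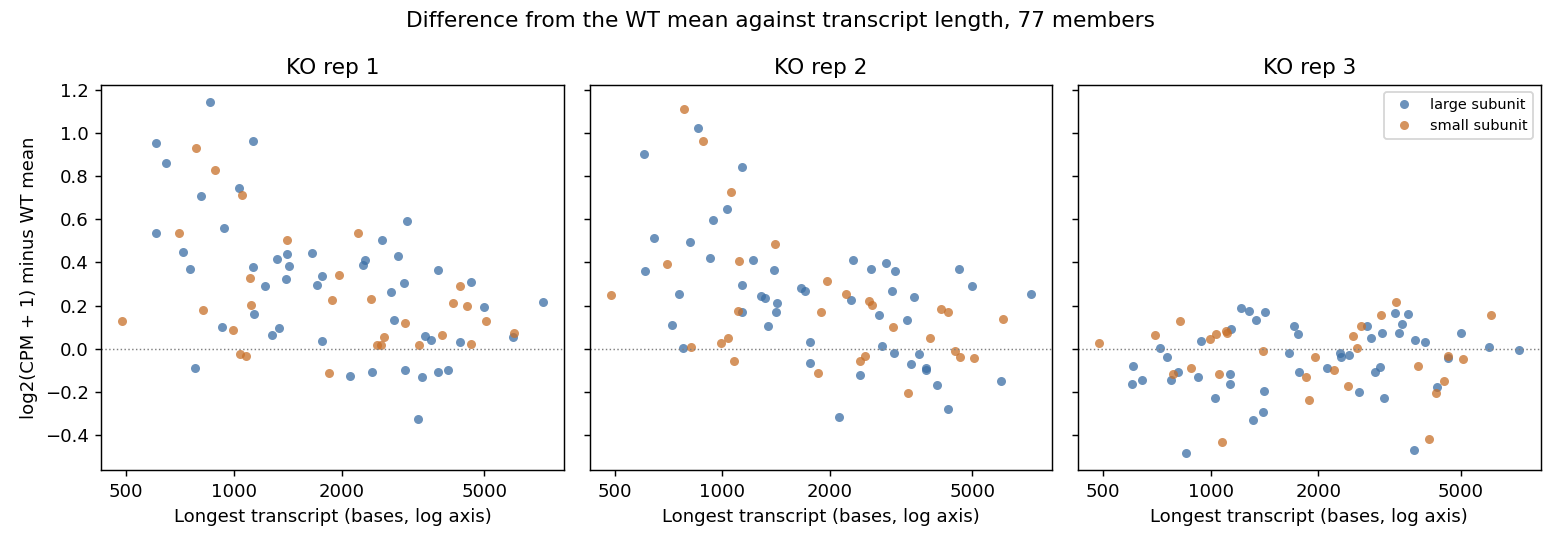
Difference of each tested member from the WT mean on the log2(CPM + 1) scale (y axis) against the length of its longest annotated transcript in bases (x axis, log scale), in the 3 KO libraries. Short transcripts are highest in KO replicates 1 and 2 (rank correlations -0.46 and -0.49) and show no such slope in KO replicate 3 (0.13).

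By evolutionary origin the medians lay close together. Large subunit genes with a bacterial counterpart had a median log2 fold change of 0.18 (28 genes, 23 positive), and those found only in mitochondria 0.14 (20 genes, 14 positive). In the small subunit the medians were 0.09 (18 genes, 15 positive) and 0.07 (10 genes, 8 positive).

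The start regions of 3 high members and of the lowest, Mrpl50, are shown as examples from both ends of the fitted differences. They were read from RefSeq windows (GRCm38.p6) of 250 bases before to 50 after the start, 5′ to 3′ on the gene's strand. Capitals mark exact matches, on either strand, to CCGGAAG (the core bound by ETS factors such as GABPA), AAGATGG (the core bound by YY1), GCGCATG (part of the site of NRF1) or GGGCGG (SP1), none of which overlap each other here. Mrps12 lies at chr7:28741772-28742071 (minus strand), Mrpl52 at chr14:54426659-54426958 (plus), Mrps11 at chr7:78782881-78783180 (plus) and Mrpl50 at chr4:49521034-49521333 (minus).
Mrps12: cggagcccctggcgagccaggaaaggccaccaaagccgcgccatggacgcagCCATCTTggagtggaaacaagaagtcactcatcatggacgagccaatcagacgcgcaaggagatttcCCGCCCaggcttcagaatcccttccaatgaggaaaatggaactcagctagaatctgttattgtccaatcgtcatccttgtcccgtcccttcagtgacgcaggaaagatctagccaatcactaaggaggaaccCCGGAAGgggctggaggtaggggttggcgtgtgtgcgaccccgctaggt
Mrpl52: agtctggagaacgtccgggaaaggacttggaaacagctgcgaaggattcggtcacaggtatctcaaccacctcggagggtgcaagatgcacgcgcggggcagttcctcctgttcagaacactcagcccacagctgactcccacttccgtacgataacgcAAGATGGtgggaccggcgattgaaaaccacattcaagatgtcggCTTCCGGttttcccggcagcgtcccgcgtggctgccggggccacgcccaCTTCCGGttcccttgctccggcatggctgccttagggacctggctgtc
Mrps11: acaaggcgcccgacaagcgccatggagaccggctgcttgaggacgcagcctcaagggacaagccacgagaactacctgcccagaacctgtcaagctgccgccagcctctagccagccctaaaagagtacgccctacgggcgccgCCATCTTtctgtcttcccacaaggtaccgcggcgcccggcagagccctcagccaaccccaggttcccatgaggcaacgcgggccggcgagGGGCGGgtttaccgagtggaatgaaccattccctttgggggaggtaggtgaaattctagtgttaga
Mrpl50: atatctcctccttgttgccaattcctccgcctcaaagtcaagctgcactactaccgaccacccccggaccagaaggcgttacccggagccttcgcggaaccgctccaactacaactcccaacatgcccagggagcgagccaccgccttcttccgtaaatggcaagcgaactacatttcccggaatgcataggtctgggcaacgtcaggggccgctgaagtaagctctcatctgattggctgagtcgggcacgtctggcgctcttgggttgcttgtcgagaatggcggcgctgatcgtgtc

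Positions are offsets from the first base after the 250 upstream bases. The ETS match of Mrps12 begins at 1 and those of Mrpl52 at -47 and 2. Mrps12, Mrpl52 and Mrps11 each hold a YY1 match, at -198, -91 and -106, and the window of Mrpl50 held none of these letters. The printed windows do not stand for high and low members in general. Mrpl28 (log2 fold change 0.55) and Mrpl20 (0.36), not printed, held no match to any of the motifs. At the low end, Mrps18b (-0.18) matched NRF1, ETS and SP1, Mrpl48 (-0.14) ETS and SP1, and Mrps27 (-0.12) ETS and YY1, while Mrpl45 (-0.09) held none. Windows were found for 69 member symbols. The ETS core was present in 26 (37.7%), against 20.1% of 10093 tested genes with a window and 9.93% of all 27025 genes with one. YY1 was present in 13 (18.8%, against 8.35% of tested genes), NRF1 in 8 (11.6%, against 7.98%) and SP1 in 34 (49.3%, against 69.9%). Tested members with an ETS match had a median log2 fold change of 0.15 (25 genes) and those without 0.11 (43 genes). For the YY1 letters the medians were 0.09 (13 genes) and 0.14 (55 genes).

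A total of 33 members start within 1000 bases of a gene on the opposite strand. In the 28 pairs with both genes tested and a partner that is no member, the median was 0.12 for the member and 0.05 for its partner. The same sign was found in 18 of these pairs, and the rank correlation was 0.48, over pairs that share libraries. In these 28 pairs 20 members and 18 partners were above 0, so many shared signs follow from that alone. Some pairs also share exonic sequence, such as Mrpl43 with Twnk (33.4% of the exonic length of Mrpl43). No source used here says how reads in shared exons were counted. Mrpl54 and Apba3 start 26 bases apart, and Apba3 was at 9.32 and 9.69 CPM in WT against 16.07, 14.44 and 7.15 CPM in KO. Mrps12 and the mitochondrial seryl-tRNA synthetase gene Sars2 start 172 bases apart, with log2 fold changes of 0.57 and 0.17. Mrps11 and Mrpl46 form a pair of members whose annotated starts overlap by 412 bases, with 0.44 and 0.19.

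Other genes of mitochondrial translation were read from lists. Of 5 mitoribosome proteins with other names 4 were above 0 (median log2 fold change 0.01). Among them, Aurkaip1 was at 16.79 and 15.52 CPM in WT against 30.28, 30.16 and 13.73 CPM in KO (0.50, SE 0.34), the order of libraries seen for Mrpl54, and Ptcd3 had -0.18 (SE 0.14). Of 28 assembly factors 14 were above 0 (median -0.01), with Nsun4, an rRNA methyltransferase, at -0.27 (SE 0.15) and Noa1 at 0.27 (SE 0.16). Of 15 translation factors 8 were above 0 (median 0.03), with the elongation factor Tufm at 0.39 (SE 0.23). Of 17 mitochondrial tRNA synthetases 6 were above 0 (median -0.05), and Nars2 was at 10.43 and 8.43 CPM in WT against 6.56, 6.11 and 7.15 CPM in KO (-0.45, SE 0.18), its groups not overlapping.

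Of 10 genes of mitochondrial DNA upkeep and transcription 4 were above 0 (median -0.02), Polrmt among them at 0.23 (SE 0.30). Of 10 regulators of mitochondrial biogenesis 4 were above 0 (median -0.01), with Yy1 at -0.20 (SE 0.14) and the coactivator gene Ppargc1a at -0.21 (SE 0.16). Of 13 mitochondrially encoded mRNAs 4 were above 0 (median -0.04), and mt-Nd3, at 216 and 215 CPM in WT against 441, 259 and 222 CPM in KO, was the highest of them (0.44, SE 0.28). No gene of these lists was called by limma, and the list medians stood nearer to that of all genes (0.01) than the members' 0.14 did.

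The cytosolic ribosomal protein genes, 81 tested, had the same order of medians among the KO libraries as the members. Their median against the WT mean was 0.45, -0.15 and -0.48 in KO replicates 1, 2 and 3. WT replicates 1 and 2 stood at 0.14 and -0.14. KO replicate 1 exceeded both WT libraries for 63 of the 81 (77.8%), against 58 of the 77 mitochondrial members (75.3%). KO replicate 2 did so for 18 (22.2%), against 50 members (64.9%). KO replicate 3 was below both for 78 (96.3%), against 29 members (37.7%). None was called by limma, and a difference between the 2 ribosome classes was not tested.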

How the data were processed

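The members and all lists were chosen with earlier results of these data known. Per the submitters' processing notes, HISAT2 2.1.0, featureCounts, edgeR 3.20.1 and mm10 were used. No source used here names the annotation release or the strand setting. The deposited signal is a CPM of an effective library size, rounded by the authors to 2 decimals. The authors also deposited log2 values (a fold change and a mean CPM), the score of a likelihood ratio test and its p-value and FDR, quoted only as their table.

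From these values, log2(CPM + 1) was fitted with limma 3.58.1 (R 4.3.3, trend option), genotype as the only term, over all 5 libraries and the 14884 genes reaching 0.5 CPM in 2 or more libraries. P-values are two-sided, adjusted by Benjamini-Hochberg over all genes tested, with a threshold of 0.05. Fitted differences of lists are given as counts and medians, with no test. Positions, lengths and overlaps come from GENCODE vM21 (GRCm38), in which 78 members were found. Low values lay within 0.0055 CPM of whole reads, from which depth was read. Intervals and floors cover counting error only.

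Members were named where, in each subunit, they were among the 4 smallest p in either direction or the 3 highest or lowest by CPM, with 11 fixed by role. Members outside this rule were picked from their values. The motifs and the classes by bacterial counterpart were also set late, with the values in view. The NRF1 and YY1 motifs were shortened after a search with longer forms had been seen. The fit was tested on simulated data of 14614 genes for the KO and WT comparison (coefficient of variation 12%). It recovered 54% of genes changed by 1.5-fold and 100% of those changed by 2-fold, with 14 false among 191 calls. The simulation gave every gene the same coefficient of variation and put changes only on genes well above the filter. In the measured libraries Dis3l2, with a log2 fold change of -1.24, had a limma adjusted p of 0.954. The simulated recovery therefore does not tell how often such changes are found in these libraries. Alternatives were other scalings, filters and pseudocounts, a replicate block, leaving out each library and, added after seeing the data, a sex term and removal of the trend with length and GC.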

Additional observations from a re-analysis of the deposited data

How the results depend on the processing

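The medians of both subunits kept their direction under every alternative run. Scaling without mitochondrially encoded RNAs and Rn7sk nevertheless brought the small subunit median from 0.085 to 0.021 and the large from 0.16 to 0.097. The small over large ratio kept its direction too, but a ratio of sums does not depend on scaling, so the scalings could not have reversed it. With Mrps18a and Mrps30 moved, or with geometric means, KO replicate 3 no longer lay below both WT libraries. No member was called under any alternative other than the replicate block. With the replicate block, 7 members (Mrps12, Mrpl54, Mrpl28, Mrps11, Mrpl20, Mrpl52 and Mrpl2, limma adjusted p 0.0255 to 0.0480) and 390 genes of the whole table passed (339 higher, 2.28%). KO replicate 3 has no partner there and adds nothing to the genotype difference. The libraries share only a number, and nothing in the labels says the numbers pair them. Deviations from the group mean correlated at 0.41 between the libraries numbered 1 and 0.54 between those numbered 2. The deviations of the 2 WT libraries are mirror images, so both values rest on a single WT contrast and cannot show a pairing. The count over the whole table was 0 with median-of-ratios size factors, with no filter, with a pseudocount of 5, with the sex term and with length and GC removed, and ran from 0 to 8 when 1 library was left out, the 8 being without KO replicate 3. Leaving out KO replicate 3 also moved the large subunit median from 0.16 to 0.28.

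Named members with values near 0 changed sign. With length and GC removed, Mrpl12 was at -0.026, Mrps35 and Mrps10 at 0.011 and Mrpl13 at 0.019. With size factors, Mrps5 was at -0.0056, Mrps30 at -0.0084, Mrps17 at -0.0085 and Mrps22 at -0.0088. Scaled without mitochondrially encoded RNAs and Rn7sk, they were at -0.056, -0.058, -0.060 and -0.059. With the replicate block, Mrps22 was at -0.095, Mrpl23 at 0.13 and Mrps10 at 0.20, and with the sex term Mrps5 was at -0.0022. Leaving out 1 library gave ranges of -0.094 to 0.11 for Mrps30, -0.047 to 0.33 for Mrpl12, -0.047 to 0.059 for Mrps17, -0.079 to 0.094 for Mrps5, -0.072 to 0.031 for Mrpl13, -0.095 to 0.12 for Mrps22, -0.29 to 0.13 for Mrpl23, -0.12 to 0.20 for Mrps10, -0.0039 to 0.17 for Mrps16, -0.18 to 0.0062 for Mrpl45, -0.17 to 0.0082 for Mrpl3 and -0.058 to 0.022 for Mrps35. The cause of these changes was not tested.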
